A study of Arabidopsis thaliana with 47 samples.

Results

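Transcript levels are described here for 10 Arabidopsis thaliana loci that carry no gene symbol in the annotation used: AT1G13650, AT2G25510, AT3G28270, AT2G36145, AT5G42760, AT2G15020, AT3G56290, AT5G48490, AT1G70820 and AT3G52740. They were chosen, out of 21158 loci with a probe set of their own, because an earlier analysis of the same arrays found them strongly higher after a shift to brighter light or strongly lower with lincomycin. No numerical threshold was stated for that choice. Their differences between groups are therefore a description, with standard errors; counts of loci past a threshold stand beside the share of all probe sets, and nothing is read from them. Each locus is measured by 1 probe set, all 10 passed into the fit because no filter on low signal was applied, and since neither a name nor a role is annotated for them they are called by locus.

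The study grew Col-0 wild-type seedlings on medium with 2% sucrose, with or without 0.5 mM lincomycin, for 6 days in dim blue plus red light of 0.5 µmol m-2 s-1. Seedlings were then moved to blue plus red light of 60 µmol m-2 s-1 and collected, 7 days old, before the move (0 h) and 0.5, 1, 4 and 24 h after it. Each of the 47 Affymetrix arrays carried RNA from a pool of 50 to 100 whole seedlings, so the values average over all organs and individuals. Both 0 h groups held 8 arrays, the group at 1 h with lincomycin held 3, and each of the other 7 groups held 4; the submitters state that the biological replicates were separately grown.

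Lincomycin blocks protein synthesis on plastid ribosomes and so stops seedlings from building functional chloroplasts. Plastids in that state change the expression of many nuclear genes, above all those for photosynthesis, through plastid-to-nucleus (retrograde) signalling. Light acts on many of the same genes through phytochromes and cryptochromes, the red and blue light receptors, and through transcription factors such as HY5. A locus can thus follow light, plastid state or both, and the study measured the light shift with and without the drug. No seedlings kept in dim light were collected at the later times, so brighter light and elapsed time cannot be told apart.

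Levels are given as log2(signal + 1), where the signal is the deposited linear intensity, and compare a locus only with itself. The first quartile of each array served as a floor, and for a group whose mean lay at or below the mean floor of its arrays a difference is given as a bound ("at least"). That floor lay between 5.37 and 6.21 on 46 arrays. One array, number 4 of the 24 h group without lincomycin, differed from all others. It had a floor of 7.36 and a median rank correlation with the other arrays of 0.62, against 0.91 to 0.95 for the other 46. Values with and without it are given where it moved them most. The signals of added control RNAs split the arrays into 3 sets, which no label names: 0 h numbers 1 to 4 with 0.5 and 1 h without lincomycin, the corresponding arrays with lincomycin, and all 4 and 24 h arrays with 0 h numbers 5 to 8 of both treatments. The log2 signal of the Dap control was 4.49 ± 0.51 (SD, n = 12 arrays) in the first, 8.90 ± 0.17 (n = 11) in the second and 8.02 ± 0.29 (n = 23) in the third. Array 4 at 24 h without lincomycin clustered with the first set in place of its own. Direct lincomycin comparisons at 0.5 and 1 h thus cross control-RNA sets. At 0 h the lincomycin difference averages numbers 1 to 4, which cross sets, with numbers 5 to 8, which share the third set. Estimates that include the set in the model (46 arrays, here called values with the set as a term) are given beside the differences of the loci at these times. At 0 h these estimates come from numbers 5 to 8 alone. They assume that the 0 h arrays of a treatment differ by set alone. Over all 17 comparisons the median difference of all probe sets lay between -0.26 and 0.22, and quantile normalization brought it to between -0.03 and 0.03.

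Whole seedlings mix cell types, and fewer cells of a type cannot be told apart from less RNA per cell. Both mesophyll markers with a probe set were above the floor on all arrays of every group, and their summed signal was 2468 to 5953 with lincomycin and 9728 to 17770 without it at 0 h. The log2 differences of these 2 markers with lincomycin were -4.03 and -1.52 at 0 h, and -5.18 and -0.01 at 24 h. The summed signal of 8 root markers was 20910 to 30140 and 20100 to 31220 in these groups, and that of 6 vessel markers 4513 to 6080 and 3035 to 5257. Of 5 seed storage markers, none was above the floor on all arrays of a group except at 24 h without lincomycin, where 2 were. Of 5 guard cell markers, 1 to 4 were above the floor on all arrays of a group, and at 24 h their summed signal was 649.1 to 1730 without lincomycin and 258.3 to 407.6 with it. Of these 5, all rose by 24 h without lincomycin, beside 25.3% of all probe sets, and 4 were lower with lincomycin at that time, beside 13.3%. Those counts include the array that stood apart. The part of these shifts in the results was not tested.

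**Figure D1:**
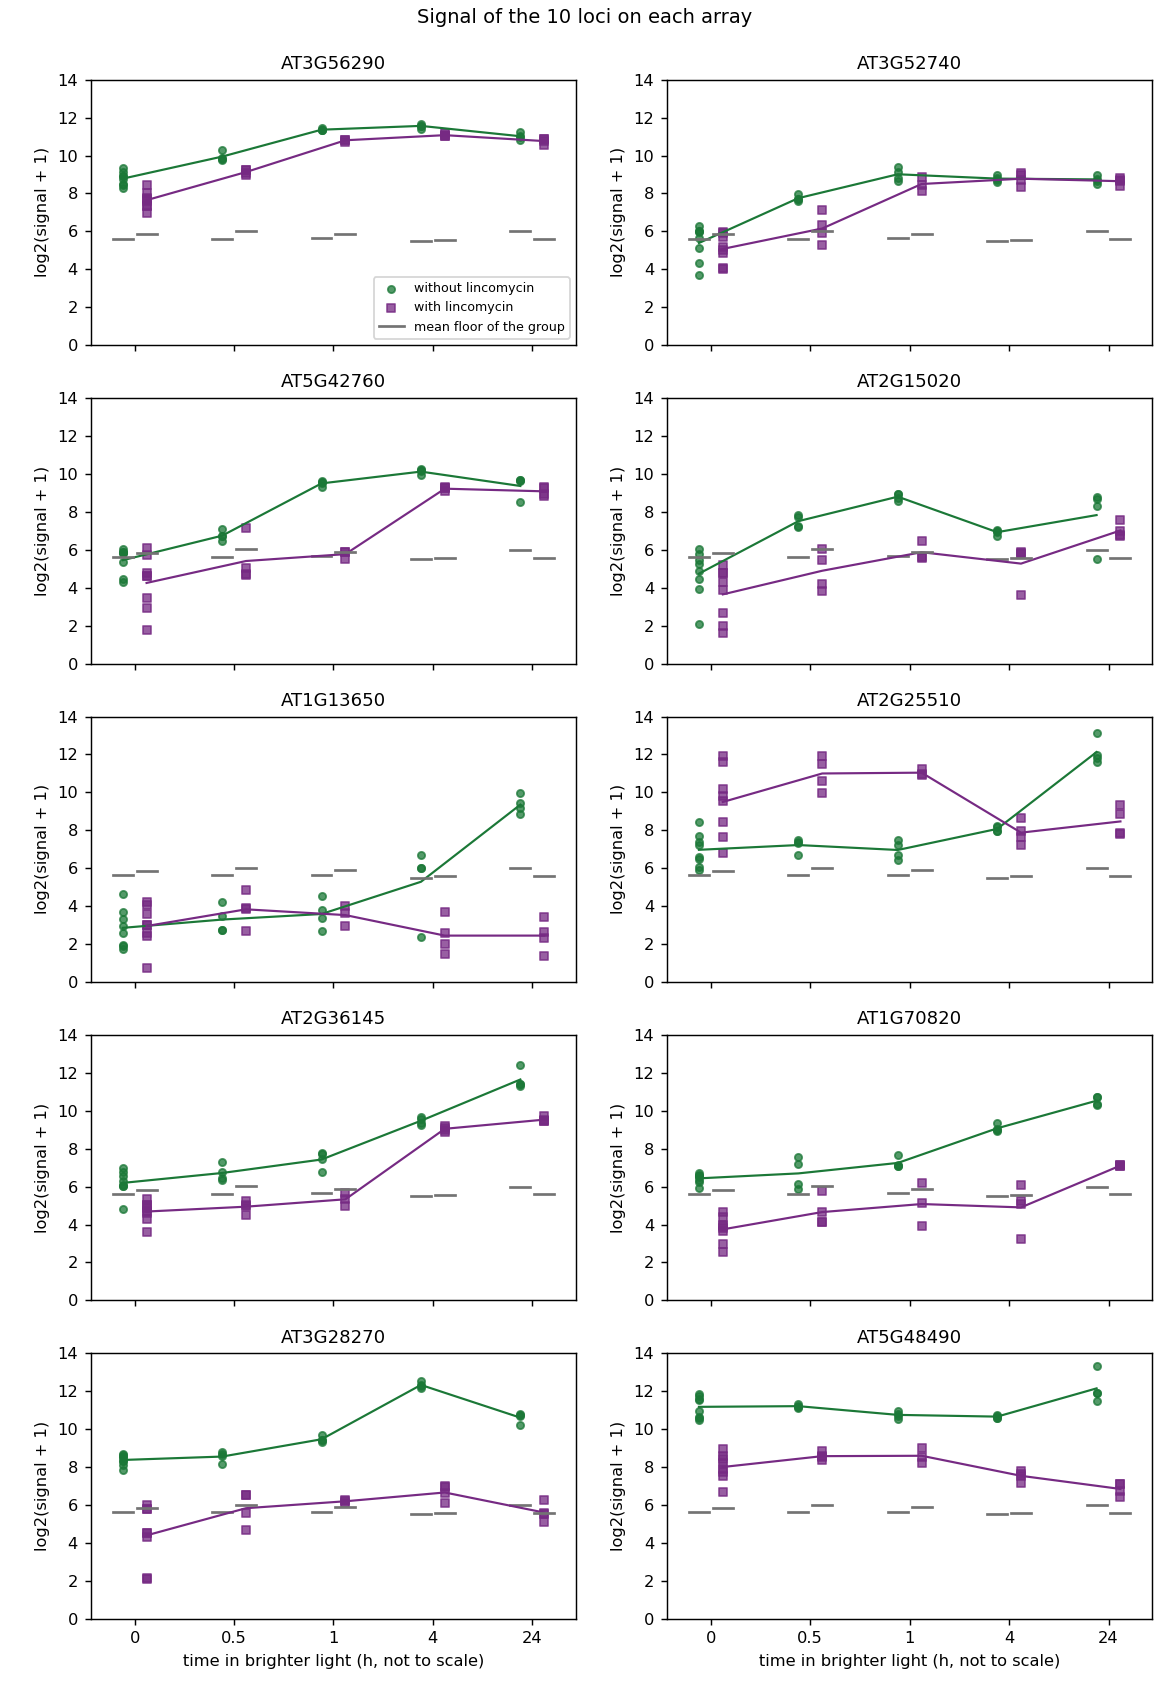
Level of each of the 10 loci on every array, as log2(signal + 1), against time in brighter light, with lines through group means; circles are arrays without lincomycin, squares arrays with it, and grey bars the mean floor of each group. AT3G56290 and AT3G52740 are higher within 1 h in both treatments, and AT1G13650 is above the floor on all 4 arrays only at 24 h without lincomycin. AT3G28270, AT5G48490 and AT1G70820 lie apart between the treatments at every time.

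Among the loci that were higher soon after the shift, AT3G56290 was higher at every later time in both treatments. Without lincomycin its 8 arrays at 0 h ran from 8.28 to 9.34 (median 8.82). At 0.5 h the arrays read 10.30, 9.87, 9.83 and 9.78, and at 1 h they read 11.44, 11.36, 11.33 and 11.32. Every array at 0.5 h was above every 0 h array, and every array at 1 h was above every array at 0.5 h. At 4 h the values were 11.67, 11.42, 11.59 and 11.58, and at 24 h 11.03, 11.24, 10.96 and 10.84, still above all 0 h arrays. With lincomycin the 0 h arrays ran from 6.99 to 8.43 (median 7.65), followed by 9.08, 9.24, 9.22 and 8.98 at 0.5 h. The 3 arrays at 1 h read 10.84, 10.84 and 10.73, and those at 4 h 11.20, 11.06, 11.03 and 11.01. The values at 24 h were 10.86, 10.87, 10.57 and 10.75, so that this locus too was above its 0 h range from 0.5 h on with the drug. Its light response at 1 h was 2.58 ± 0.14 (SE) without lincomycin and 3.16 ± 0.16 with it, and with the set as a term 2.29 ± 0.16 and 3.03 ± 0.18. With lincomycin the level differed by -1.13 ± 0.12 at 0 h (-0.97 ± 0.16 with the set as a term) and -0.25 ± 0.17 at 24 h. At 0.5, 1 and 4 h every array with lincomycin was below every array without it, whereas at 24 h the treatments overlapped. The difference was -0.82 ± 0.17 at 0.5 h and -0.56 ± 0.18 at 1 h. With the set as a term it was -0.49 ± 0.29 and -0.23 ± 0.29, no longer past the call threshold.

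AT3G52740 followed a similar course from a level near the floor. Without lincomycin its 0 h arrays ran from 3.72 to 6.29 (median 5.81), then 7.99, 7.62, 7.71 and 7.69 at 0.5 h. The arrays at 1 h read 8.65, 9.40, 9.15 and 8.84, those at 4 h 8.97, 8.84, 8.60 and 8.72, and those at 24 h 9.0, 8.79, 8.68 and 8.50. The level at 1, 4 and 24 h was thus alike within the overlap of the arrays. With lincomycin 0 h arrays ran from 3.99 to 5.95 (median 5.10), and the arrays at 0.5 h, 5.90, 6.31, 5.28 and 7.11, overlapped them. At 1 h the 3 arrays read 8.89, 8.46 and 8.15, at 4 h 8.36, 8.71, 8.98 and 9.06, and at 24 h 8.70, 8.84, 8.66 and 8.39. Against the 0 h arrays of its own control-RNA set alone, every array at 0.5 h with lincomycin was above all 0 h arrays. The lincomycin difference at 0.5 h was -1.60 ± 0.35 with no overlap of arrays (-2.34 ± 0.60 with the set as a term), against -0.01 ± 0.35 at 4 h and -0.10 ± 0.35 at 24 h. The light response at 1 h was at least 3.18 without lincomycin and at least 2.59 with it, since both 0 h means lay at or below the floor.

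Without lincomycin AT5G42760 lay above its 0 h range from 0.5 h on, and with it only from 4 h on. Without the drug 0 h arrays ran from 4.29 to 6.06 (median 5.84). The values at 0.5 h were 7.09, 6.70, 6.71 and 6.47, those at 1 h 9.56, 9.65, 9.51 and 9.29, and those at 4 h 10.19, 10.15, 10.24 and 9.92. The arrays at 24 h read 9.66, 9.67, 9.61 and 8.53, the last being the array that stood apart. With lincomycin the 0 h range was 1.75 to 6.11 (median 4.6), and 7.17, 4.67, 5.06 and 4.74 at 0.5 h and 5.88, 5.53 and 5.90 at 1 h still overlapped it. At 4 h the arrays read 9.09, 9.26, 9.30 and 9.25 and at 24 h 9.27, 9.29, 8.81 and 8.96, all above every 0 h array. At 1 h the treatments lay farthest apart, with a lincomycin difference of -3.73 ± 0.61 and of at least 3.53 in size above the floor; with the set as a term it was -4.34 ± 1.00. By 24 h the treatments overlapped, with a difference of -0.28 ± 0.56 (-0.56 ± 0.60 without the array that stood apart).

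AT2G15020 was higher at 0.5 and 1 h, lower again at 4 h and high once more at 24 h without lincomycin. There the 0 h arrays ran from 2.08 to 6.04 (median 5.08). The arrays at 0.5 h read 7.81, 7.74, 7.27 and 7.22, and those at 1 h 8.95, 8.96, 8.74 and 8.56. At 4 h the values were 6.75, 6.95, 7.03 and 6.98, every one below all arrays at 0.5 and 1 h. At 24 h 3 arrays read 8.80, 8.30 and 8.70, and the array that stood apart read 5.52. With lincomycin the 0 h range was 1.63 to 5.21 (median 4.08), with 5.48, 4.19, 6.06 and 3.84 at 0.5 h, 6.44, 5.57 and 5.61 at 1 h, 3.60, 5.89, 5.78 and 5.81 at 4 h and 7.55, 6.75, 6.79 and 6.98 at 24 h. Group means with lincomycin up to 4 h lay at or below the floor, so their order was not resolved. The lincomycin difference was -2.93 ± 0.62 at 1 h, at least 2.81 in size (-3.37 ± 0.87 with the set as a term), and -1.66 ± 0.57 at 4 h, at least 1.14. At 24 h it was -0.81 ± 0.57 with all arrays and -1.58 ± 0.53 without the array that stood apart, when the arrays of the treatments no longer overlapped. The light response at 24 h without lincomycin was 3.09 ± 0.50 with all arrays, at least 2.11, and 3.86 ± 0.47 without that array. With the set as a term it was 4.75 ± 0.53, against 0 h arrays of that set alone, which read lower.

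A second set of loci was higher late, and for AT1G13650 this was measured only without lincomycin. Its 0 h arrays ran from 1.76 to 4.63 (median 2.78) without lincomycin and from 0.75 to 4.2 (median 3.0) with it, all under the floor. At 0.5 and 1 h without lincomycin the arrays lay between 2.69 and 4.52, also under the floor. At 4 h they read 2.40, 6.71, 6.02 and 6.00, 3 of them above the floor, and at 24 h 9.16, 8.84, 9.43 and 9.99. With lincomycin no array was above the floor at any time, and the values at 24 h were 3.42, 2.63, 1.38 and 2.34. At 24 h the mean of 9.35 ± 0.49 (SD, n = 4) without lincomycin was at least 3.77 above the level with lincomycin and at least 3.74 above 0 h. Without the array that stood apart, which read 9.99, the mean was 9.14 ± 0.30 (SD, n = 3), which lowers both bounds. The differences of the measured values, -6.91 ± 0.69 for lincomycin and 6.50 ± 0.60 for light, ranked first among the 21282 probe sets of 1 gene, and rest on dim values on 1 side. Without that array these differences were -6.70 ± 0.75 and 6.29 ± 0.67. The order of the other groups, whose means lay at or below the floor, was not resolved.

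AT2G25510 differed between the treatments in opposite directions early and late. Its median in dim light was higher with lincomycin: 0 h arrays ran from 6.82 to 11.90 (median 9.69) with the drug and from 5.90 to 8.44 (median 6.90) without it. At 0.5 h the arrays with lincomycin read 9.96, 11.94, 11.50 and 10.60 against 7.40, 6.70, 7.33 and 7.46, and at 1 h 11.21, 10.99 and 10.92 against 6.45, 7.47, 6.70 and 7.23. The treatments overlapped at 0 h and did not at 0.5 and 1 h. The lincomycin difference was 2.52 ± 0.33 at 0 h, 3.78 ± 0.47 at 0.5 h and 4.08 ± 0.51 at 1 h. With the set as a term these differences were 1.85 ± 0.46, 2.42 ± 0.79 and 2.72 ± 0.81. At 4 h the groups overlapped, with 7.23, 7.95, 8.67 and 7.66 with lincomycin and 7.95, 8.24, 8.16 and 7.94 without it. By 24 h the order was turned: 9.34, 7.83, 8.84 and 7.86 with lincomycin lay below 11.95, 11.80, 11.61 and 13.15 without it, a difference of -3.66 ± 0.47 (-3.32 ± 0.49 without the array that stood apart, which read 13.15). Without lincomycin the light response at 24 h was 5.16 ± 0.41, or 35.7-fold on this scale. Without the array that stood apart it was 4.82 ± 0.44.

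The level of AT2G25510 with lincomycin also differed between the sets of 0 h arrays, at 10.88 ± 1.04 (SD, n = 4) in numbers 1 to 4 and 8.11 ± 1.16 (n = 4) in numbers 5 to 8. The light response with lincomycin depended on which set it was taken against: 1.55 ± 0.45 at 1 h and -1.62 ± 0.41 at 4 h against both sets, and 0.16 ± 0.49 and -0.23 ± 0.46 against the 0 h arrays of the same set. At 24 h its sign changed, from -1.03 against both sets to 0.36 against the same set.

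AT2G36145 was higher late in both treatments, and at 24 h it was lower with lincomycin. Without the drug its 0 h arrays ran from 4.83 to 6.99 (median 6.18), with values at 0.5 h of 7.32, 6.44, 6.33 and 6.80 and at 1 h of 7.44, 7.80, 7.71 and 6.78. The arrays at 4 h read 9.37, 9.59, 9.70 and 9.25, and those at 24 h 11.44, 11.32, 11.43 and 12.43, each group above all earlier ones. With lincomycin the 0 h range was 3.60 to 5.34 (median 4.80), and the arrays at 0.5 and 1 h lay between 4.52 and 5.67, with means at or below the floor. At 4 h they read 8.86, 9.11, 9.22 and 9.01, and at 24 h 9.75, 9.50, 9.45 and 9.44. The light response at 4 h was 3.28 ± 0.26 without lincomycin and at least 3.21 with it, and at 24 h 5.46 ± 0.26 (5.2 ± 0.28 without the array that stood apart) and at least 3.70. The lincomycin difference was -1.51 ± 0.22 at 0 h, at least 0.36 in size, with overlap of arrays (-1.09 ± 0.29 with the set as a term). At 0.5 and 1 h it was at least 0.70 and 1.53 in size. With the set as a term it was -0.93 ± 0.50 and -1.25 ± 0.52 there, not past the call threshold. It was -0.42 ± 0.31 at 4 h, also not past it, and -2.12 ± 0.31 at 24 h (-1.86 ± 0.31 without the array that stood apart). At both late times all arrays with the drug were lower, at 4 h narrowly (9.22 against 9.25).

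AT1G70820 was higher from 1 h on without lincomycin and only at 24 h with it. Without the drug 0 h arrays ran from 5.94 to 6.72 (median 6.54), and 7.21, 7.56, 6.14 and 5.88 at 0.5 h overlapped them. The arrays at 1 h read 7.67, 7.13, 7.11 and 7.10, those at 4 h 9.01, 8.93, 9.34 and 9.04, and those at 24 h 10.38, 10.29, 10.74 and 10.73. With lincomycin 0 h arrays ran from 2.54 to 4.67 (median 3.88), and those at 0.5, 1 and 4 h lay between 3.24 and 6.18, with means at or below the floor. At 24 h the arrays read 7.07, 7.14, 7.15 and 7.09, close together and above every earlier array with the drug. At every time all arrays with lincomycin lay below all arrays without it. The lincomycin difference was -2.69 ± 0.30 at 0 h, at least 0.60 in size (-3.23 ± 0.43 with the set as a term). It was at least 0.68 in size at 0.5 h and 1.34 at 1 h. With the set as a term the measured values at these times were -3.11 ± 0.75 and -3.24 ± 0.77. The difference was at least 3.41 in size at 4 h and was -3.42 ± 0.43 at 24 h, a 10.7-fold lower level. The light response at 24 h was 4.1 ± 0.37 without lincomycin and at least 1.27 with it.

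For AT3G28270 and AT5G48490, as for AT1G70820, the arrays of the treatments did not overlap already in dim light. AT3G28270 ran from 7.87 to 8.69 (median 8.43) at 0 h without lincomycin and from 2.08 to 6.01 (median 4.52) with it. Without the drug the arrays at 0.5 h read 8.70, 8.56, 8.79 and 8.18, those at 1 h 9.43, 9.32, 9.70 and 9.43, those at 4 h 12.19, 12.35, 12.30 and 12.52, and those at 24 h 10.74, 10.82, 10.68 and 10.21. The level was thus highest at 4 h and lower again at 24 h, with no overlap between the groups at 1, 4 and 24 h. With lincomycin it read 4.69, 6.55, 5.58 and 6.52 at 0.5 h, 6.26, 6.22 and 6.12 at 1 h, 6.99, 6.10, 6.94 and 6.63 at 4 h and 5.51, 5.09, 5.58 and 6.25 at 24 h. The lincomycin difference at 0 h was at least 2.53 in size. Its measured value there was -3.98 ± 0.27, and -5.34 ± 0.39 with the set as a term, both resting on dim values. At 4 h the difference was -5.67 ± 0.39, or 51.0-fold, and at 24 h -5.01 ± 0.39. That at 4 h was the largest fall among the 21282 probe sets of 1 gene at that time. The difference between the light responses at 4 h was -1.70 ± 0.47 with both sets of 0 h arrays and -0.33 ± 0.55 within sets, with the 0 h level under lincomycin at or below the floor.

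AT5G48490 was bright without lincomycin throughout. Against all 0 h arrays it differed little in the first hours after the shift. Against the 0 h arrays of its own set, every array at 0.5 and 1 h without lincomycin was lower. Its 0 h arrays ran from 10.48 to 11.87 (median 11.26) without lincomycin and from 6.66 to 8.97 (median 8.07) with it. Without the drug the arrays read 11.11, 11.25, 11.16 and 11.35 at 0.5 h, 10.54, 10.72, 10.79 and 10.99 at 1 h, 10.76, 10.71, 10.60 and 10.60 at 4 h and 11.89, 11.50, 11.91 and 13.33 at 24 h. With it they read 8.83, 8.52, 8.40 and 8.57 at 0.5 h, 8.53, 9.03 and 8.24 at 1 h, 7.14, 7.81, 7.66 and 7.56 at 4 h and 7.10, 6.45, 7.11 and 6.73 at 24 h. No array with lincomycin reached the lowest array without it at any time. The lincomycin difference was -3.17 ± 0.18 at 0 h and -2.16 ± 0.27 at 1 h. With the set as a term these values were -3.20 ± 0.20 and -2.21 ± 0.35. The difference was -3.12 ± 0.25 at 4 h and -5.31 ± 0.25 at 24 h (-4.92 ± 0.21 without the array that stood apart, which read 13.33). Its light response at 24 h was 0.97 ± 0.22 without lincomycin, 0.58 ± 0.19 without that array, and -1.16 ± 0.22 with lincomycin. At 1 h without lincomycin it was -0.42 ± 0.22 against all 0 h arrays and -0.93 ± 0.20 within its set. The value within the set passed the call threshold.

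**Figure D2:**
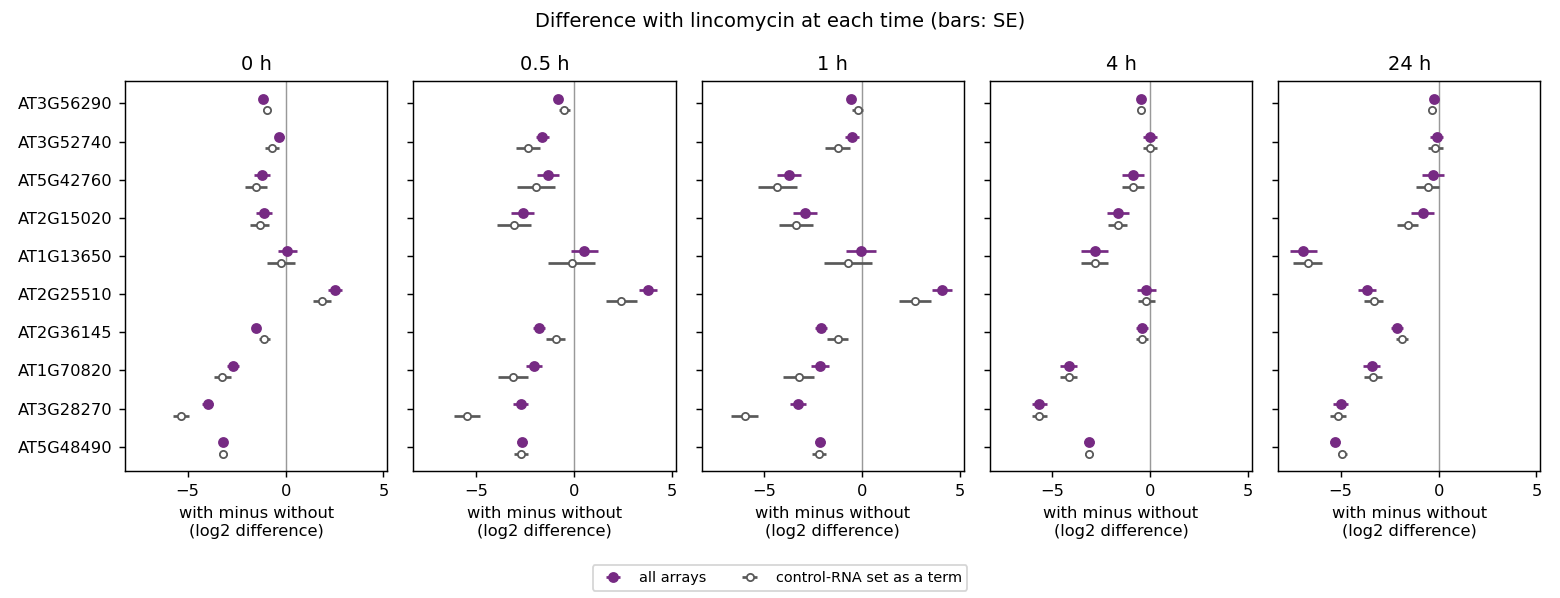
Difference with minus without lincomycin (log2, bars are SE) for the 10 loci at 5 times; filled points come from the fit of all arrays and open points from the fit with the control-RNA set as a term, all at measured values. AT2G25510 lies right of 0 at 0, 0.5 and 1 h and left of it at 24 h (-3.66), and AT1G13650 lies farthest left at 24 h (at least 3.77 in size, since the level with lincomycin was under the floor).

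The threshold for a call was an adjusted p of 0.05 (limma, Benjamini-Hochberg within a comparison), and the counts below are set beside the share of all 22746 probe sets called in the same direction. Because the loci were chosen on these contrasts, nothing is read from their counts. With lincomycin, 7 of the 10 loci were called lower at 0 h, beside 10.7% of probe sets, 7 at 0.5 h beside 8.3%, 7 at 1 h beside 6.66%, 6 at 4 h beside 5.81% and 6 at 24 h beside 13.3%. The median over the 10 loci was -1.17, -1.69, -2.13, -1.28 and -2.77 at these times, beside 0.16, 0.22, 0.14, 0.06 and -0.07 for all probe sets. With the set as a term the count was 5 at 0.5 h beside 6.37%, and 5 at 1 h beside 5.96%. The count at 4 h was 4 to 5 when any 1 of the 8 arrays compared was left out. The arrays of the 2 treatments did not overlap, in either direction, for 3 loci at 0 h beside 9.04% of probe sets, 8 at 0.5 h beside 28.7%, 8 at 1 h beside 32%, 7 at 4 h beside 27.1% and 6 at 24 h beside 24.2%. These shares differ between times also because the groups hold 8, 4 or 3 arrays.

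In brighter light without lincomycin, 3 loci were called higher at 0.5 h beside 4.32% of probe sets, 6 at 1 h beside 8.51%, 9 at 4 h beside 19.8% and all 10 at 24 h beside 25.3%. The median light response of the 10 loci was 0.48, 1.16, 2.71 and 3.64 at these times, beside 0.02, 0.03, -0.06 and 0.15 for all probe sets. With lincomycin, 4 loci were called higher at 0.5 h beside 3.01%, 5 at 1 h beside 2.65%, 7 at 4 h beside 10.6% and 7 at 24 h beside 12.6%. With the set as a term the counts with lincomycin were 2 at 0.5 h beside 0.497% and 2 at 1 h beside 1.7%. In the difference between the light responses, with minus without lincomycin, no locus was called lower at 0.5 h beside 0.501% or at 1 h beside 1.07%, while 3 were at 4 h beside 6.97% (1 with the set as a term, beside 10.2%) and 3 at 24 h beside 16.9%. Those at 24 h were AT1G13650 at -7.00 ± 0.85, a value that rests on dim signals, AT2G25510 at -6.18 ± 0.58 and AT5G48490 at -2.13 ± 0.31.

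**Figure D3:**
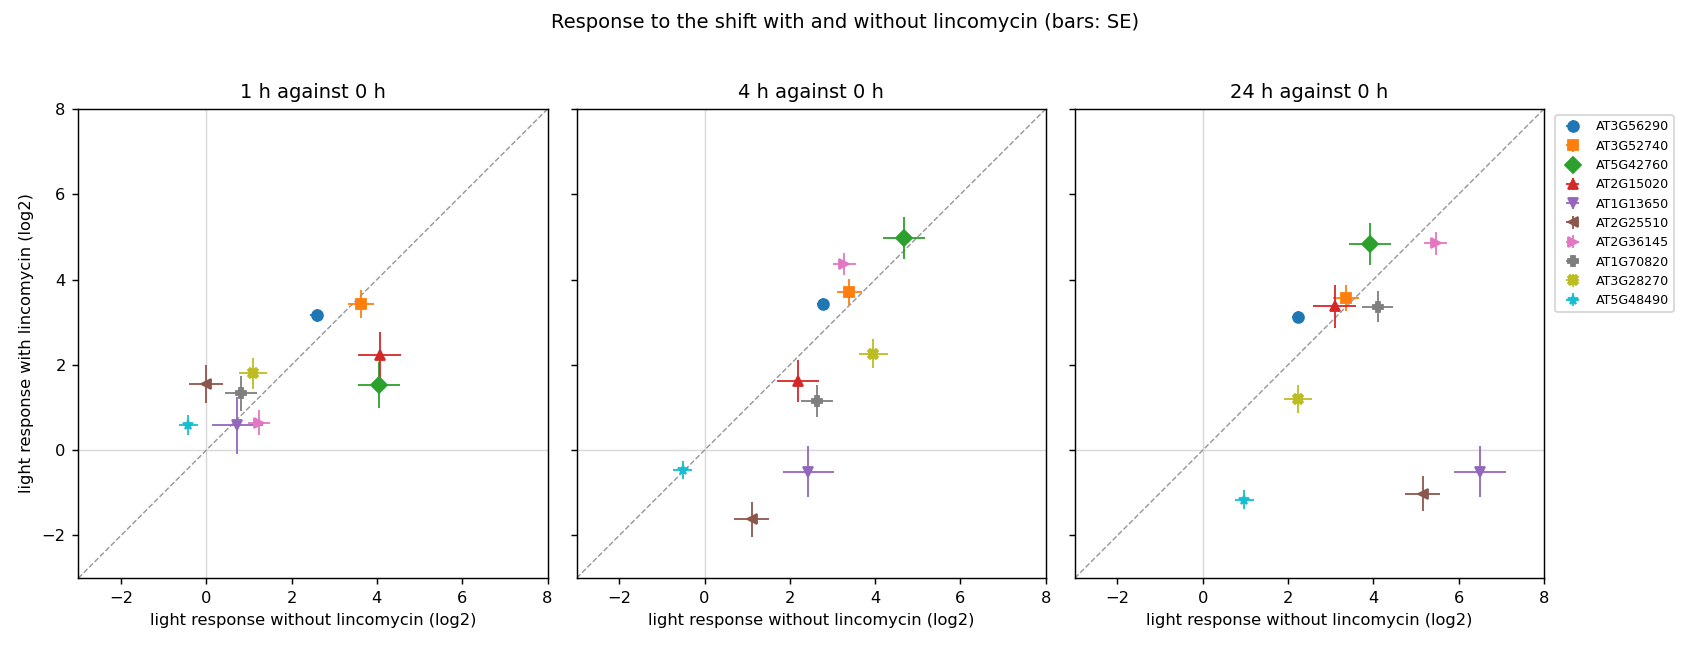
Light response with lincomycin (vertical) against that without it (horizontal) at 1, 4 and 24 h, both as log2 difference from 0 h with SE bars; the dashed line marks equal responses, and points stand at measured values, also where a level was under the floor. AT2G25510 (5.16 against -1.03) lies far below the line at 24 h. With the set as a term its responses were 5.52 and 0.36. AT1G13650 also lies far below the line, with a response of at least 3.74 without lincomycin and levels with it under the floor.

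The 0 h arrays of a treatment fall into 2 control-RNA sets, numbers 1 to 4 and 5 to 8. Without lincomycin, numbers 1 to 4 lay wholly above numbers 5 to 8 for 4 loci, beside 16.9% of all probe sets, and wholly below for 2, beside 17.5%. With lincomycin they lay wholly above for 4, beside 15.6%. For AT2G15020 the means were 5.63 and 3.85 without lincomycin and 4.76 and 2.54 with it, and for AT5G48490 they were 11.69 and 10.68, and 8.54 and 7.47. For AT3G52740 without lincomycin the order was the opposite, at 4.70 in numbers 1 to 4 and 6.07 in numbers 5 to 8. AT3G28270 was higher in numbers 1 to 4 with lincomycin, at 5.54 against 3.26, and lower in them without it, at 8.16 against 8.60. Growth, extraction and labelling of the sets cannot be told apart. Without lincomycin the first time at which all arrays lay above all 0 h arrays was the same with either reference except for AT2G25510, for which it was 24 h against both sets and 4 h within the set, and AT5G48490, for which there was none against both sets and it was 24 h within the set. With lincomycin it was the same for 9 loci, and for AT3G52740 it was 1 h against both sets and 0.5 h within the set. Only AT5G48490 lay wholly below its 0 h arrays at any time, first at 0.5 h within the set without lincomycin.

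**Figure D4:**
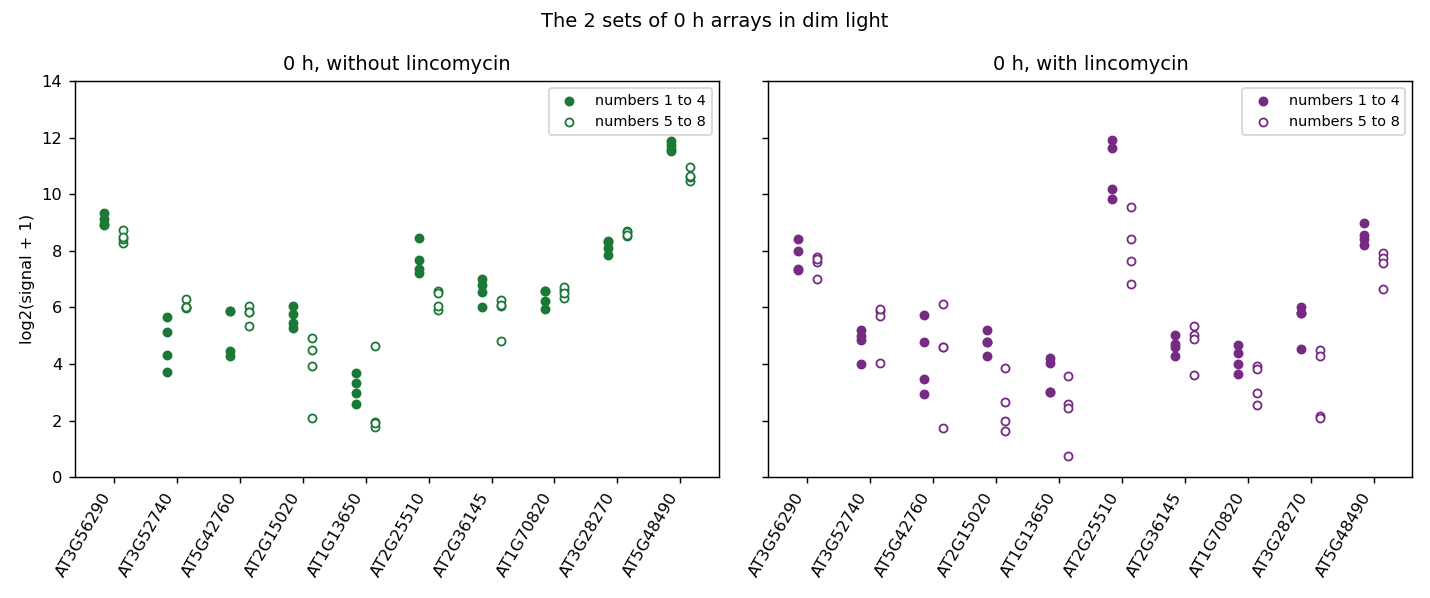
Level of the 10 loci, as log2(signal + 1), on the 0 h arrays without (left) and with (right) lincomycin; filled points are numbers 1 to 4 and open points numbers 5 to 8. With lincomycin AT2G25510 has means of 10.88 and 8.11 in the sets, and AT3G28270 5.54 and 3.26.

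The spread between arrays was in the median larger in dim groups, but AT2G25510 was spread widely although bright. Over sets of 4 arrays with a mean at or below the floor the median SD was 0.88 on the log2 scale (32 sets), and over those above it 0.26 (78 sets). AT3G56290, AT5G48490 and AT2G25510, which were above the floor in all 10 groups, had median SDs of 0.17, 0.21 and 0.61. For AT1G13650, at or below it in 9 groups, the median SD was 0.84.

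The authors' deposited table gives log ratios for the same groups; no base is stated and log2 is assumed. They followed a light response taken against 0 h numbers 1 to 4 at 0.5 and 1 h and against numbers 5 to 8 at 4 and 24 h. Of 110 ratios of the 10 loci in the authors' deposited table, 97 had the sign of the fitted difference, and of the 77 whose fitted size exceeded 1, 75 did. The exceptions were light responses with lincomycin. AT2G25510 at 24 h was at 0.77 in the authors' deposited table against -1.03 in the fit, and AT5G42760 at 1 h at -0.01 against 1.52. Within the set the value of AT2G25510 was 0.36, with the sign of the authors' ratio. Both groups of AT5G42760 lay at or below the floor, so the size of 1.52 was not measured. For AT1G13650 at 24 h the authors' deposited table gives 5.47 for light without lincomycin and -5.49 for lincomycin. For AT2G25510 it gives 1.91 for lincomycin at 0 h and -4.48 at 24 h in the authors' deposited table, with the same turn of direction as the fit. Some values differ: AT5G42760 at 0.5 h without lincomycin is at 0.02 in the authors' deposited table and at 1.29 ± 0.49 in the fit, whose 0 h level was under the floor. AT2G25510 at 1 h without lincomycin is at -1.26 there in the authors' deposited table, against -0.01 ± 0.41 from all 0 h arrays and -0.72 ± 0.46 within the set.

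Genes of known function, listed for comparison, were measured in the same fit. Of 33 genes of photosystems and antenna, the light-harvesting machinery that the nucleus encodes, all 33 fell with lincomycin at each of the 5 times (13.3% of all probe sets at 24 h), with medians from -1.42 at 0.5 h to -2.55 at 24 h. The largest changes at 24 h were -4.65 ± 0.17 for PSAD2 and -4.14 ± 0.20 for PSBQ2, subunits of photosystem I and of the oxygen-evolving part of photosystem II, and -4.17 ± 0.12 for PETE1, a plastocyanin. In brighter light without lincomycin 26 of the 33 rose by 24 h beside 25.3% of all probe sets, with a median of 0.99. Under quantile normalization 19 did, and 23 to 33 did when single arrays were left out. AT5G48490 was chosen on such differences, so nothing is read from its place beside this list. With lincomycin it differed by -3.17 at 0 h, -2.16 at 1 h and -5.31 at 24 h (-4.92 without the array that stood apart). The list ranged from -2.87 to -0.93, from -2.27 to -0.75 and from -4.65 to -0.74 at these times.

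Among 8 regulators tied to plastid state, 7 fell with lincomycin at 0 h, beside 10.7% of all probe sets, and 6 at 24 h beside 13.3%, when 2 rose beside 19.9%. GLK1 and GLK2, transcription factors for chloroplast development, were at -2.74 ± 0.30 and -2.07 ± 0.28 at 24 h. BBX16, a B-box protein under GLK control, was at -5.47 ± 0.37. CGA1, a GATA factor, rose in brighter light with lincomycin, by 2.87 ± 0.20 at 1 h and 2.41 ± 0.18 at 24 h, and without it by 2.96 ± 0.18 at 1 h, before a fall below 0 h of -0.95 ± 0.18 at 24 h. AT3G56290 and AT3G52740 were likewise higher at 1 h in both treatments, at 3.16 and at least 2.59 with lincomycin.

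Of 18 genes of blue light signalling, 11 rose at 1 h without lincomycin, beside 8.51% of all probe sets, and 10 with it, beside 2.65%. ELIP1 and ELIP2, early light-induced proteins, rose by 2.99 ± 0.38 and 2.91 ± 0.26 without lincomycin at 1 h. HY5 and HYH, bZIP factors of light signalling, rose by 2.83 ± 0.17 and 2.80 ± 0.17 with it. At 24 h 10 of the 18 were higher with lincomycin, beside 19.9% of all probe sets, and 1 was lower, AT3G44450 at -1.72 ± 0.29. Without lincomycin at 24 h 7 of the 18 were above 0 h, beside 25.3% of all probe sets, and 8 below it, beside 23.5%.

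Starch and hexose phosphate metabolism gave 13 of 26 genes lower with lincomycin at 24 h, beside 13.3% of all probe sets, and 1 higher, beside 19.9%. ADG1, a subunit of the enzyme that makes the glucose donor for starch, was at -2.37 ± 0.23, and GBSS1, the starch synthase bound to granules, at -2.33 ± 0.18. By 24 h without lincomycin 19 of the 26 rose, beside 25.3% of all probe sets, ISA2, a debranching enzyme, by 2.60 ± 0.12. Of 8 lipid transfer protein genes 5 were higher with lincomycin at 24 h, beside 19.9% of all probe sets; the count was 3 without array 2 of that group. LTP3 was at 3.68 ± 0.23 and LTP4 at 3.17 ± 0.29. At 24 h without lincomycin 4 of the 8 fell against 0 h, beside 23.5% of all probe sets, LTP3 by -2.67 ± 0.20, and LTP6 rose by 2.33 ± 0.24.

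A further 6 genes, listed as relatives of some of the loci from general knowledge of gene families that the annotation used here does not state, moved in different ways. AT3G44450 rose with light at all times in both treatments, by 3.34 ± 0.25 at 1 h and 4.88 ± 0.25 at 24 h without lincomycin and by 2.52 ± 0.27 and 3.35 ± 0.25 with it; its rise at 0.5 h without lincomycin did not pass the threshold with the set as a term. PGM1, a phosphoglucomutase, rose by 1.72 ± 0.14 at 24 h without lincomycin and was lower with it by -1.11 ± 0.16. PGM3, another phosphoglucomutase, was higher with lincomycin at 24 h, at 0.78 ± 0.19. PGM2 gave 0.12 ± 0.27 there, or -0.51 without the array that stood apart, and the second value passed the threshold in the fit with the set as a term. LCMT1, a carboxyl methyltransferase, fell by 24 h without lincomycin, at -1.73 ± 0.14, and DIR1, a lipid transfer protein of defence signalling, gave 0.30 ± 0.13 there. By 24 h without lincomycin 2 of the 6 rose and 1 fell, beside 25.3% and 23.5% of all probe sets, and 4 rose without the array that stood apart.

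The genes beside the 10 loci on the chromosomes were taken from the order of the TAIR10.1 annotation, with 2 protein-coding genes on each side. Of these 40 genes 30 had a probe set of their own. With lincomycin at 24 h 8 of the 30 were higher, beside 19.9% of all probe sets, and 3 lower, beside 13.3%, with a median of 0.11 beside -0.07 for all probe sets. At 24 h without lincomycin 11 of the 30 rose, beside 25.3% of all probe sets, and 9 fell, beside 23.5%, with a median of 0.36 beside 0.15. AT3G56260, near AT3G56290, rose at 1 h by 3.38 ± 0.30 without lincomycin and by 1.36 ± 0.33 with it. ACA1 and FTSZ2-2, a carbonic anhydrase and a plastid division protein near AT3G52740, rose by 24 h without lincomycin by 2.14 ± 0.16 and 2.31 ± 0.16. AT1G13670, beside AT1G13650, rose by 2.13 ± 0.23 at 1 h without lincomycin, when AT1G13650 was under the floor. DIR1, beside AT5G48490, was at -1.25 ± 0.16 with lincomycin at 4 h and at 0.09 ± 0.16 at 24 h.

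For each locus the 3 genes of most similar course were found by Pearson's r over the means of the 10 groups, among 12655 candidates; these r values describe 10 points that share arrays and time course, and carry no test. AT3G56290 was most like HYH (0.98), AT5G64170 (0.98) and BBX18 (0.98), and AT3G52740 was most like AT3G56290 itself (0.97), BBX18 (0.97) and HYH (0.95). AT5G48490 was most like PSBQ-2 (0.98), AT5G54540 (0.98) and PSAE-2 (0.98), so that 2 of the 3 are photosystem subunits. AT1G70820 was most like FBP (0.98), a fructose bisphosphatase, FBA5 (0.98), an aldolase, and LBD21 (0.97).

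AT3G28270 was most like AT4G00895 (0.99), AT3G60750 (0.97) and AT3G28220 (0.96), and AT2G36145 most like AT2G21860 (0.99), AT1G18060 (0.99) and AT4G32980 (0.99). AT5G42760 was most like HBP1 (0.99), AT5G23920 (0.97) and BLH6 (0.96). For AT1G13650 they were AT2G22230 (0.97), AT1G33170 (0.95) and AT4G09620 (0.95), for AT2G25510 AT1G11200 (0.97), AT4G08240 (0.96) and DPMS2 (0.96), and for AT2G15020 CP1 (0.96), ATATH8 (0.93) and AT3G44630 (0.91).

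Among themselves the 10 loci did not share 1 course. Over the 45 pairs, r of the group means ran from -0.20 to 0.97 with a median of 0.59; it was over 0.9 for 1 pair, AT3G56290 with AT3G52740, and under 0 for 6. Over 46 arrays, r of the deviations from the group means ran from -0.46 to 0.44 with a median of 0.07, so that arrays of 1 group that were high for one locus were not in general high for the others.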

How the data were processed

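The 10 loci, the gene lists and the alternatives were chosen with earlier results of these data known. The authors deposited linear signal intensities, 1 for each probe set on each array; per the submitters' processing notes MAS5 and GCRMA were used, with no role given. The 2% trimmed mean of each array was 500.03 to 500.05, so the arrays had been scaled. Log ratios of their own comparisons, also deposited by the authors, are read as log2. Coordinates were used only for the order of genes on the chromosomes, from the TAIR10.1 annotation.

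Of 22810 probe sets, 64 controls were left out and 22746 were tested as log2(signal + 1) in 1 limma fit of 47 arrays with 12 cells (the 8 later groups, and each 0 h group as numbers 1 to 4 and 5 to 8, averaged). The call was a Benjamini-Hochberg adjusted p under 0.05 within each of 17 comparisons, a method tested on simulated data. One gene was named for 21282 probe sets, 13299 by the platform table and 7983 by the authors' table alone; 520 held several genes, 807 none and 137 disagreed. Named genes were the 10 loci, all listed relatives, up to 3 called genes of largest change in a list and comparison described, and the 3 most alike genes; chromosome neighbours named were chosen after their values were seen. The 3 control-RNA sets came from clustering the added control RNAs, and the floor was the first quartile of each array. With no sequence reference used here, no sequence is printed. Tools were Python 3.11.15, pandas 2.3.3, numpy 2.4.6, scipy 1.17.1, matplotlib 3.10.9, R 4.3.3 and limma 3.58.1. Alternatives were quantile normalization, a pseudocount of 16, other 0 h references, the control-RNA set as a term, a replicate block, a filter on dim probe sets, leaving out single arrays and the authors' ratios. The number of arrays limits the precision.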

Additional observations from a re-analysis of the deposited data

Results flagged for a closer look

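Single arrays stood apart within their group for 9 of 90 combinations of locus and group of 4 or more arrays, by the ratio of the gap to the range; chance gives about 1 in 20. For AT1G13650 array 1 at 4 h without lincomycin read 2.40 against 6.00 to 6.71. AT2G36145 read 4.83 on array 8 at 0 h without lincomycin against 6.02 to 6.99, and 12.43 on array 4 at 24 h against 11.32 to 11.44. Array 1 at 0.5 h with lincomycin read 7.17 for AT5G42760 against 4.67 to 5.06, and array 4 at 24 h without lincomycin 8.53 against 9.61 to 9.67. For AT2G15020 array 4 at 24 h without lincomycin read 5.52 against 8.30 to 8.80, and array 1 at 4 h with lincomycin 3.60 against 5.78 to 5.89. AT3G56290 read 10.30 on array 1 at 0.5 h without lincomycin against 9.78 to 9.87, and AT1G70820 read 7.67 on array 1 at 1 h without lincomycin against 7.10 to 7.13. Of these, 3 lie on array 4 at 24 h without lincomycin, which stood apart over all probe sets.

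For 6 loci the light response with lincomycin minus that without it is listed because its interaction term in the limma fit passed 0.05; as the loci were chosen on these contrasts, the values are a description and no test. At 4 h they were -2.94 for AT1G13650, -2.72 for AT2G25510, -1.70 for AT3G28270, 1.09 for AT2G36145 and 0.64 for AT3G56290. With the control-RNA set as a term they were -2.61, -2.04, -0.33, 0.66 and 0.48. All 4 groups behind the value of AT1G13650 lay at or below the floor, as did the 0 h group with lincomycin of AT3G28270 and of AT2G36145, so these sizes were not measured. At 24 h they were -7.00 for AT1G13650, -6.18 for AT2G25510, -2.13 for AT5G48490 and 0.88 for AT3G56290, and -6.47, -5.16, -1.72 and 0.65 with the set as a term. For AT1G13650 the 24 h group without lincomycin alone was above the floor.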

How the results depend on the processing

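Counts of loci called higher in brighter light with lincomycin moved with the setting. The loci were chosen on these contrasts and calls over all probe sets moved too, so nothing is read from these counts. At 0.5 h the count was 4, and 2 with quantile normalization, 1 with the 0 h arrays of the same set as reference, 2 with the set as a term, and 1 to 4 when single arrays were left out (1 without array 2 and 2 without array 4 of that group). At 1 h it was 5, and 2 with the same set as reference, 2 with the set as a term, and 3 to 6 when single arrays were left out (3 without array 1 of that group). Loci with a lower light response with lincomycin numbered 3 at 4 h, and 1 with the same set as reference or the control-RNA set as a term. At 24 h there were 3, beside 16.9% of all probe sets in the main fit, and 6 with a pseudocount of 16. At 1 h there were none, and 2 with a pseudocount of 16, 1 without the array that stood apart, 1 without dim probe sets and 0 to 1 when single arrays were left out, with 1 without array 1 or 3 at 0 h without lincomycin or array 1, 4 or 5 at 0 h with it. At 0.5 h there were none, and 0 to 1 when single arrays were left out, with 1 without array 6 at 0 h with lincomycin. Listed relatives higher at 24 h without lincomycin were 2, and 4 without the array that stood apart or with the set as a term (2 to 4 when single arrays were left out, with that same array the one that moved it). Lipid transfer protein genes higher with lincomycin at 24 h were 5, and 3 to 5 when single arrays were left out (3 without array 2). The authors' ratios were not run for the listed genes. Over all probe sets, calls higher at 0.5 h without lincomycin numbered 983, and 88 with the same set as reference, 197 with the set as a term and 1985 without the array that stood apart. With lincomycin they numbered 684, and 38, 113 and 1695 in the same order. At 1 h with lincomycin they numbered 602, and 218, 386 and 1308. Probe sets with a lower light response with lincomycin at 1 h numbered 243, and 43, 140 and 661. Loci lower with lincomycin at 4 h numbered 6, and 4 to 5 when single arrays were left out. No difference of a locus changed its sign among called values. The replicate numbers did not pair the arrays: r of the deviations of same-numbered arrays ran from -0.35 to 0.32 (175 pairs, median -0.004), and with a replicate block 5 loci in place of 6 were called lower with lincomycin at 4 h. Signals under the floor limit AT1G13650 in 9 of 10 groups.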
